A study of Mus musculus with 2 samples.

Results

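Fibroblast growth factor (FGF) ligands, their receptors and the feedback inhibitors of the pathway were compared between the tooth and the skin of newborn mice. The members were every array row that was not a control and was named as a numbered *Fgf*, *Fgfr*, *Fgfbp*, *Spry* or *Spred* gene, *Fgfrl1*, *Etv4*, *Etv5* or *Dusp6*. This gave 39 genes on 61 probes and 97 spots, of 24105 named genes, 55681 probes and 59305 spots on the array. The set held 18 secreted ligands, 4 intracellular FGF-homologous factors, 2 FGF-binding proteins, 5 receptors, 8 feedback inhibitors and 2 ETS transcription factors.

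Total RNA came from wild-type mice, and each tissue was hybridised to 1 single-colour Agilent array of 60-base probes. The labels gave the age as P0 (postnatal day 0) for both the tooth and the skin, whereas the study's methods named the following day. How many animals were pooled for each RNA, and from which teeth or which skin region it came, was not stated in the sources used here. In the study the array pair accompanied the question whether teeth that form hairs without the transcription factor Sox21 had taken on a skin fate.

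FGFs are secreted proteins that bind heparan sulfate and activate receptor tyrosine kinases, which signal through Ras and the kinase ERK. Signalling induces ETS transcription factors together with its own inhibitors, the Sprouty and Spred proteins and the ERK phosphatase Dusp6, so that these genes are widely used as readouts of the pathway. In teeth, FGFs pass between the epithelium, including its enamel knots, and the underlying mesenchyme, whereas in skin they take part in hair follicle induction, epidermal growth and the ending of hair growth.

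Several probes carried the contrasts between both tissues and are shown here as the array held them, 5′ to 3′, with positions in the mouse build mm9. *Fgf3* and *Fgf22*, ligands of the same subfamily, were read by probes whose letters could be aligned. In the best ungapped alignment 43 bases overlapped and 25 of them matched, which are in capitals in both lines.
Fgf3 (chr7:152026667-152028526, forward strand, across a splice junction): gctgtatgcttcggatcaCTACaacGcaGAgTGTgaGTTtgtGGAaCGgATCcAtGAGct
Fgf22 (chr10:79219513-79219572, forward strand): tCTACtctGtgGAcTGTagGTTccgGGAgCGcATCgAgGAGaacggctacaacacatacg
The *Fgf3* probe was well above background in tooth alone and the *Fgf22* probe shown in skin alone. The brighter *Fgf22* probe, not shown, was well above background on both arrays.

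For the receptors, 3 probes could be aligned and are shown because *Fgfr4* had probes of opposite direction. Capitals mark the bases that matched the *Fgfr1* probe.
Fgfr1 (chr8:26684061-26684120, forward strand): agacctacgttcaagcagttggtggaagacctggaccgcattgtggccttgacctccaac
Fgfr4 (chr13:55269212-55269271, forward strand): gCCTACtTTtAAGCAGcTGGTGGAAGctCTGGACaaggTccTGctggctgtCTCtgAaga
Fgfr3 (chr5:34077856-34078090, forward strand, across a splice junction): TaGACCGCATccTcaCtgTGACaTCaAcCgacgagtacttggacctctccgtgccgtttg
The *Fgfr4* probe matched the *Fgfr1* probe at 35 of 58 overlapping bases, with a longest identical run of 9 bases, and the *Fgfr3* probe matched it at 19 of 29, with a longest run of 8.

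The first 30 bases of the bright *Fgf23* probe (chr6:127030758-127030817, forward strand) are shown because they hold a repeat. Capitals mark 10 consecutive CA units.
Fgf23: cCACACACACACACACACACAtacatgtaa

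The level of a probe was its log2 processed signal minus the 75th percentile of its array, so that a level of 0 was brighter than 75% of the probes. Differences are skin minus tooth on the log2 scale, and negative values mean a higher level in tooth. Since each tissue had a single array, the spread between animals could not be measured and nothing was tested. The ± given is the error that the extraction software assigned to the spots, which leaves out animals, dissection and labelling. For bright probes it came to 0.20 on a difference. In whole-tissue RNA, fewer cells of a type and less RNA per cell cannot be told apart. No level of one probe was ranked against that of another, since probes differ in binding.

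Of the 39 members, 34 had a representative probe well above background on at least 1 array (87.2%, against 71.7% of all named genes). Among these, 29 were above background on both arrays, 3 in tooth alone (*Fgf3*, *Fgf4* and *Fgf12*; 8.82%, against 7.94% of all measured named genes) and 2 in skin alone (*Fgf2* and *Fgf5*; 5.88%, against 4.25%). *Fgf17*, *Fgf20*, *Fgf21*, *Spry3* and *Spred3* stayed at background on both arrays and are given no difference. At least a 2-fold difference was seen in 10 members toward tooth (29.4%, against 15.5% of all measured named genes) and in 6 toward skin (17.6%, against 14.2%), and 18 lay within 2-fold. The median difference of the members was 0.13, beside -0.04 for all 17288 measured named genes. With the arrays aligned on their medians these were -0.12 and -0.29. The differences of the members ranged from -3.81 to 5.87. Of the 34, 20 kept the sign of their difference under every alternative scaling, background correction and probe rule tried. The members spread to both sides, and whether their shares differ from those of other genes was not tested.

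The 10 members toward tooth were *Fgf1*, *Fgf3*, *Fgf4*, *Fgf9*, *Fgf12*, *Fgf13*, *Fgfr1*, *Fgfrl1*, *Spry4* and *Etv5*. The 6 toward skin were *Fgf2*, *Fgf5*, *Fgf16*, *Fgf22*, *Fgfbp1* and *Fgfr4*. Of these 16, 11 were measured on both arrays and 5 on 1 array, where the fold is only a bound. In the main processing that bound was at least 2-fold in *Fgf2*, *Fgf3* and *Fgf5* but not in *Fgf4* and *Fgf12*. Modelling the background by normexp with an offset of 50 by construction narrows differences between dim probes. Under normexp 5 members were at least 2-fold higher in tooth (*Fgf1*, *Fgf9*, *Fgfr1*, *Fgfrl1* and *Etv5*). Toward skin were 4, *Fgf5*, *Fgf22*, *Fgfbp1* and *Fgfr4*, the last with probes of opposite direction. Of all 17288 measured named genes, 1660 were past 2-fold toward tooth and 1738 toward skin under normexp.

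**Figure D1:**
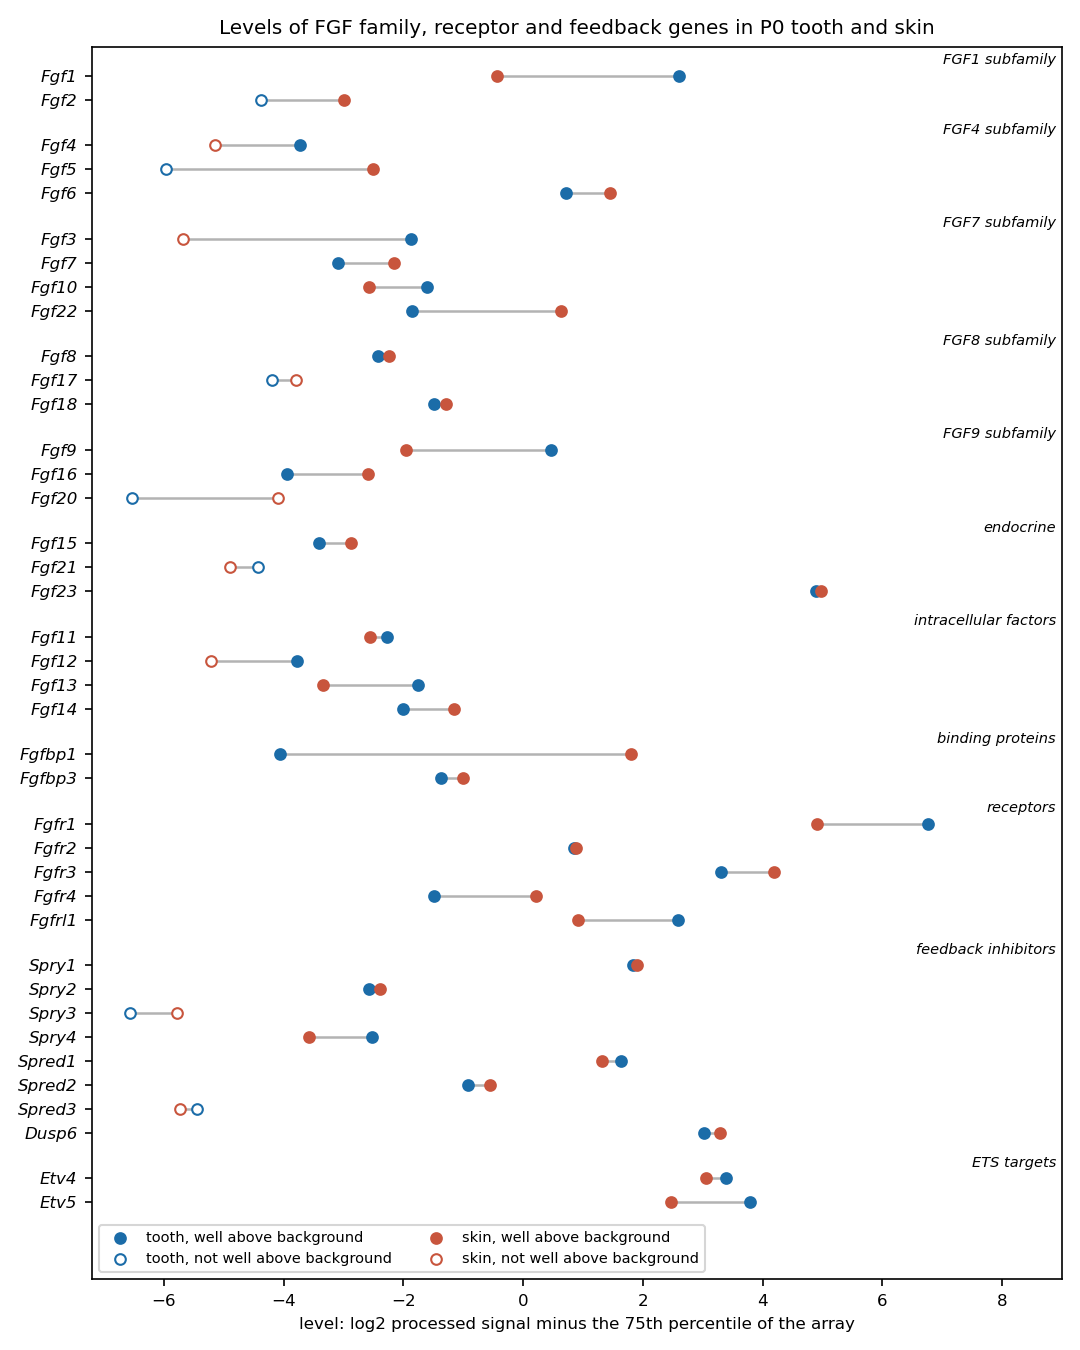
Level of each of the 39 genes in tooth (blue) and skin (red), by role, as log2 processed signal minus the 75th percentile of the array on the x axis. Filled points are well above background and open points are not, and each grey line joins the 2 arrays of 1 gene. The longest lines between filled points belong to Fgfbp1, higher in skin, and Fgf1, higher in tooth.

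The tissues carried their own marker genes. All 5 ameloblast markers and all 6 odontoblast and bone markers were past 2-fold toward tooth, and all 5 epidermal, 5 hair follicle and 6 skeletal muscle markers were past 2-fold toward skin. Amelx, Ambn, Enam and Mmp20 were not well above background in skin, and Ivl and Krt25 not in tooth. Markers of epithelium and of mesenchyme were above background on both arrays. A summed level is the log2 of the sum of unlogged levels, in which the brightest genes weigh most. The summed level of 5 epithelial markers (Cdh1, Epcam, Krt5, Krt14 and Trp63) was 9.11 in tooth and 10.05 in skin. That of 5 mesenchymal markers (Vim, Col1a1, Col1a2, Pdgfra and Twist1) was 10.32 and 7.80. Of these 5, 4 were higher in tooth, and Twist1 was higher in skin by 0.62. The part of tissue make-up in the results on the FGF genes was not tested.

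Among the 15 measured secreted ligands, 4 were past 2-fold toward tooth, 4 toward skin and 7 lay within 2-fold, with a median difference of 0.19. *Fgf1*, *Fgf3*, *Fgf4* and *Fgf9* were the ligands toward tooth, and *Fgf2*, *Fgf5*, *Fgf16* and *Fgf22* those toward skin. These shares were 26.7% in each direction, against 15.5% and 14.2% of all measured named genes. In the main processing the FGF1, FGF7 and FGF9 subfamilies each had a ligand past 2-fold in each direction. So did the FGF4 subfamily if *Fgf4*, whose bound was only 1.01-fold, is counted. Under normexp *Fgf2* (0.75), *Fgf3* (-0.86), *Fgf4* (0.15) and *Fgf16* (0.86) were short of 2-fold, and no subfamily had both directions. No measured member of the FGF8 and endocrine subfamilies was past 2-fold, where *Fgf23* counts only through its probe with the CA repeat.

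In the FGF1 subfamily, *Fgf1* (acidic FGF, which can bind every FGF receptor) had a level of 2.60 in tooth and -0.43 in skin. The difference was -3.03 ± 0.21, or 8.15-fold higher in tooth. Its second probe was above background in tooth alone, at least 2.33-fold higher, so that both probes pointed to tooth.

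*Fgf2* (basic FGF, a growth factor of many mesenchymal cells) went the other way. Its probe across a splice junction (chr3:37247934-37295153) was printed 10 times on each array. Spot levels ran from -4.59 to -4.24 in tooth, where 1 of 9 usable spots was well above background, and from -3.35 to -2.76 in skin, where 10 of 10 were. The spots of both arrays did not overlap. Here and below, spots repeat 1 RNA on 1 array, and how many other probes printed 10 times separate likewise was not counted. The tooth mean of -4.38 lay above the background limit of its array, -4.52. The bound of 2.62-fold toward skin is therefore the measured difference itself. The difference of 1.39 fell to 0.75 under normexp and 0.77 with spike-in scaling. The other *Fgf2* probe was not above background on either array.

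In the FGF4 subfamily, *Fgf4*, a signal of the enamel knots, had a level of -3.72 in tooth and -5.15 in skin, where it was not well above background. The tooth level was close to the background limit of the skin array, and the bound on the fold was at least 1.01. Under normexp its difference turned to 0.15, so that the *Fgf4* value says little beyond detection in tooth. *Fgf5*, the ligand that ends the growth phase of hair, had a level of -2.50 in skin and was not well above background in tooth, at -5.97. The bound was at least 4.04-fold toward skin, with a difference of 1.19 under normexp, beside the 5 hair follicle markers with summed levels of 1.22 in tooth and 9.57 in skin.

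*Fgf6*, an FGF of skeletal muscle, was read by probes that disagreed in level. The brighter probe (chr6:126978138-126978197) had a level of 0.72 in tooth and 1.46 in skin, differing by 0.74 ± 0.20. The other probe (chr6:126974677-126974736) was above background in skin alone, at -2.82 against -5.10 in tooth, and at least 3.23-fold higher there. Both pointed to skin, and 6 skeletal muscle markers had a summed level of 2.08 in tooth and 5.20 in skin.

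The FGF7 subfamily signals mainly to epithelium through the epithelial form of Fgfr2, and 2 of its 4 members were higher in each tissue. *Fgf3*, a ligand of dental mesenchyme and enamel knots, had a level of -1.87 in tooth and -5.68 in skin, where it was not well above background. In processed signal these were 117 and 5.38, and the level was at least 3.64-fold higher in tooth. Under normexp its difference was -0.86, short of 2-fold. *Fgf10*, which maintains the epithelial stem cell niche of the growing incisor, was printed 10 times per array. Its 9 usable spots lay between -1.79 and -1.44 in tooth and its 9 in skin between -2.84 and -2.31. The spots did not overlap between the arrays, and the difference of their means was -0.98 ± 0.09, or 1.97-fold higher in tooth. *Fgf10* thus fell just within the 2-fold limit, with the smallest error of all representative probes. It was past 2-fold with the arrays aligned on their medians (-1.23), quantile normalization (-1.12) and spike-in scaling (-1.60), and at -0.31 under normexp.

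*Fgf22*, known from the inner root sheath of hair follicles, was among the ligands furthest toward skin. Its brighter probe (chr10:79221282-79221341) had a level of -1.86 in tooth and 0.64 in skin, differing by 2.50 ± 0.21, or 5.65-fold. The probe whose sequence is given above had a level of -6.74 in tooth and 0.20 in skin, which gave a bound of at least 26.2-fold toward skin. Both probes pointed the same way, but this probe was at the tooth background while the other was above it. *Fgf7* (keratinocyte growth factor, made by mesenchyme and acting on epithelium) had a level of -3.09 in tooth and -2.15 in skin, differing by 0.93 ± 0.26 that stayed within 2-fold.

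**Figure D2:**
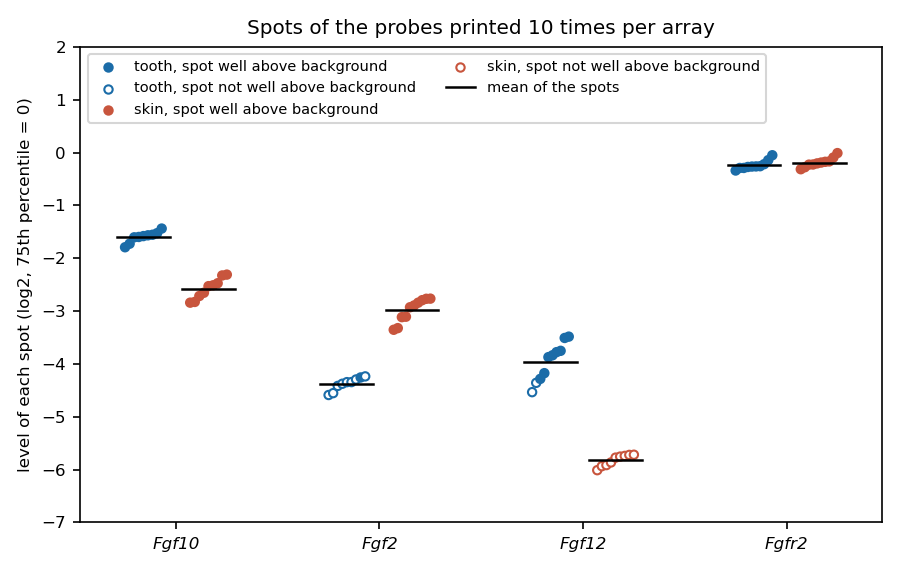
Level of every usable spot (log2, 75th percentile of the array at 0) of the 4 member probes printed 10 times, for tooth (blue) and skin (red), with the mean of the spots as a black line. Open points are spots not well above background. The spots of Fgf10, Fgf2 and Fgf12 are separate between the arrays, and those of Fgfr2 overlap. The spots of an array repeat the same RNA, so their separation does not measure the spread between animals. How many other probes printed 10 times separate likewise was not counted.

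In the FGF8 subfamily, whose founding member *Fgf8* starts tooth formation in the oral epithelium of the embryo, nothing moved by 2-fold. *Fgf8* had a level of -2.42 in tooth and -2.24 in skin on 1 probe, and its other 2 probes were not above background on either array. *Fgf18*, a regulator of bone and cartilage growth and of hair follicle rest, had differences of 0.19 ± 0.22 and 0.70 ± 0.28 on overlapping probes. *Fgf17* was not above background.

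The FGF9 subfamily had a member in each direction. *Fgf9*, an epithelial ligand of the tooth germ, had a level of 0.46 in tooth and -1.95 in skin. The processed signals were 588 and 71.5, and the difference of -2.41 ± 0.22 made it 5.31-fold higher in tooth. *Fgf16* was dim on both arrays, with levels of -3.94 in tooth and -2.60 in skin, and was 2.53-fold higher in skin (difference 1.34 ± 0.37, and 0.86 under normexp). *Fgf20*, which acts downstream of ectodysplasin in early hair and tooth placodes, was not above background on any of its 2 probes.

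The endocrine FGFs circulate as hormones and need Klotho co-receptors. *Fgf15*, the intestinal signal that limits bile acid synthesis, was dim, at -3.42 in tooth and -2.88 in skin, differing by 0.54 ± 0.32. Its probe (chr7:152086371-152086430) lay downstream of those of *Fgf3* and *Fgf4* (chr7:152051089-152051148), its neighbours on the chromosome. *Fgf21*, a fasting hormone of liver, was not above background.

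*Fgf23*, the bone hormone that lowers blood phosphate, had levels of 4.89 in tooth and 4.97 in skin on the probe with the CA repeat, and its other probe (chr6:127031289-127031348) was not above background on either array. On the whole array 19 other probes of named genes held at least 10 CA units in a row. All 19 were well above background on both arrays, beside 60.9% of all 33182 probes of named genes, and their differences ran from -0.07 to 0.21. The *Fgf23* difference on the repeat probe was 0.08 ± 0.20. The repeat probe shared a run of 20 bases with 72 other probes on the array. What this probe read was not tested, and no level of *Fgf23* itself is drawn from it. Through this probe *Fgf23* is nevertheless counted among the 34 measured members and the 15 measured secreted ligands, within 2-fold.

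The 4 intracellular FGF-homologous factors are not secreted and bind voltage-gated sodium channels. Toward tooth, *Fgf13* had a level of -1.75 in tooth and -3.34 in skin on its brighter probe (chrX:56316415-56316474), 3.01-fold higher in tooth, with a difference of -0.52 under normexp. Its second probe (chrX:56504014-56504073) gave -3.63 and -3.49, a difference of 0.14 ± 0.39, so that the result for *Fgf13* rested on 1 probe. *Fgf12* was above background in tooth alone on both probes. Its representative probe had levels of -3.78 and -5.21, a difference of -1.43 ± 0.86 that turned to 0.086 under normexp. On the other probe, printed 10 times, 8 of 10 spots were well above background in tooth and 0 of 9 in skin, with levels of -4.53 to -3.48 and -6.01 to -5.72. The spots were separate, but the tooth mean of -3.96 lay below the background limit of the skin array, which was -3.73, so that no bound on the fold can be given.

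*Fgf11* differed by -0.30 ± 0.28 and was within 2-fold. *Fgf14* was above background on 1 of its 3 probes, at -2.00 in tooth and -1.15 in skin, differing by 0.85 ± 0.22. Among neural markers, Sox10 was higher in skin by 3.21, Tubb3 was higher in tooth, with a difference of -3.17, and Snap25, read by a probe with the CA repeat, lay within 2-fold. The part of nerve content in the *Fgf12* and *Fgf13* values was not tested.

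FGF-binding proteins release FGFs from heparan sulfate in the matrix. *Fgfbp1* (chr5:44370565-44370624) had the largest difference of all members measured on both arrays. Its level was -4.06 in tooth and 1.81 in skin, with processed signals of 25.7 and 967, and the difference of 5.87 ± 0.34 made it 58.3-fold higher in skin. The tooth level was only just above background, and under normexp the difference was 3.92. *Fgfbp3* was level between the tissues, at -1.36 and -1.01 (difference 0.36 ± 0.21). The 5 epidermal markers had a summed level of 2.59 in tooth and 11.88 in skin, so that *Fgfbp1* moved in the direction of the epidermal genes, and their part in its value was not tested.

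**Figure D3:**
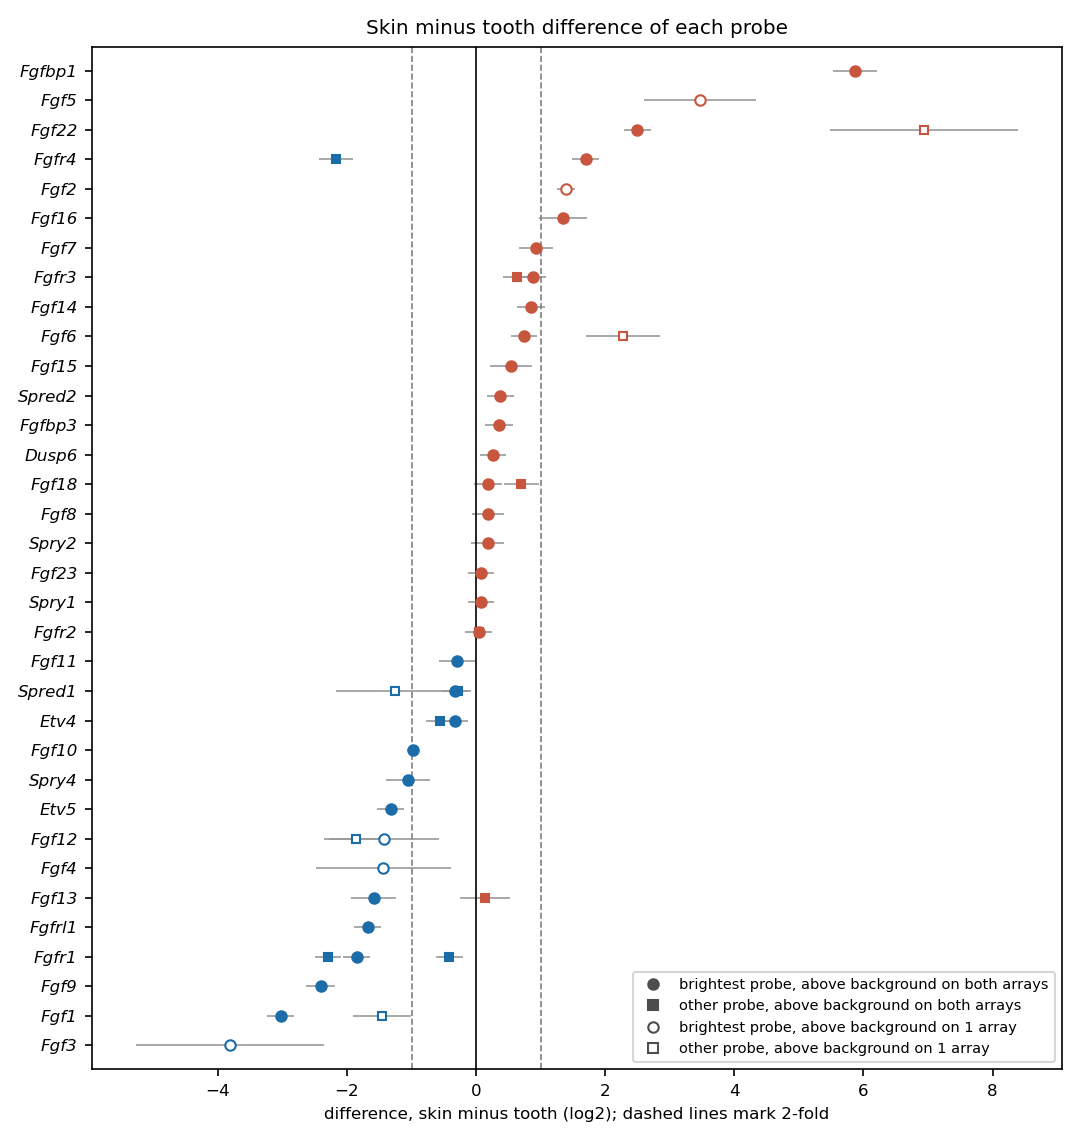
Difference between skin and tooth (log2, x axis) of the 48 member probes well above background on at least 1 array, with 1 row per gene and the error of the extraction software as bars. Circles are the brightest probe of a gene, squares its other probes, and open symbols are probes above background on 1 array only. Fgfr4 and Fgf13 are the genes with probes on both sides of 0, and dashed lines mark 2-fold.

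All 5 receptors were above background on both arrays. *Fgfr1*, the main receptor of mesenchyme, was higher in tooth on every probe. On its brightest probe (chr8:26685072-26685131) the level was 6.76 in tooth and 4.91 in skin, differing by -1.85 ± 0.20, or 3.61-fold. The probe shown above gave 3.18 and 0.89, or 4.89-fold. The remaining probe (chr8:26685820-26685879) gave 0.81 and 0.39, or 1.33-fold. This probe is rich in GTTT repeats and shared a run of 20 bases with 9 probes of other names on the array. *Fgfrl1*, a receptor without a kinase domain that can act as a decoy, had a level of 2.59 in tooth and 0.91 in skin and was 3.21-fold higher in tooth (difference -1.68 ± 0.20).

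*Fgfr2*, the receptor of the FGF7 subfamily in epithelium, was level between the tissues. It had 0.85 in tooth and 0.88 in skin on 1 probe, and on the overlapping probe printed 10 times the spots ran from -0.34 to -0.05 in tooth and from -0.31 to -0.01 in skin. With an error of 0.07 on the difference of 0.05, *Fgfr2* was the most precisely read of the receptors, and its spots overlapped throughout. *Fgfr3*, a receptor of cartilage and of epithelium, was higher in skin within 2-fold, by 0.89 ± 0.20 on the brightest probe and by 0.63 ± 0.21 on the probe across the splice junction, and its remaining probe (chr5:34074696-34074755) was at background on both arrays.

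*Fgfr4* was the receptor whose probes contradicted each other. The brighter probe (chr13:55270033-55270092) had a level of -1.48 in tooth and 0.21 in skin, 3.24-fold higher in skin (difference 1.70 ± 0.21). The probe shown above had -0.35 in tooth and -2.52 in skin, 4.50-fold higher in tooth (difference -2.17 ± 0.26). The latter value lay near that of the aligned *Fgfr1* probe (difference -2.29 ± 0.20), with which it shared the letters shown above. Whether *Fgfr1* RNA contributed to the *Fgfr4* reading was not tested, and the mean of both *Fgfr4* probes was -0.24. *Fgfr4* is therefore given no direction here, although the rule of the brightest probe counts it among the 6 toward skin.

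Among the feedback inhibitors and ETS factors, 8 of 10 were measured, 2 were at least 2-fold higher in tooth, none in skin, and 6 lay within 2-fold (25%, 0% and 75%, against 15.5%, 14.2% and 70.3% of all measured named genes). Their median difference was -0.13 and their range -1.32 to 0.37, narrower than the -3.81 to 3.47 of the secreted ligands. Both groups differ in size and in signal, and the contrast of the ranges was not tested.

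*Etv5*, an ETS factor induced by FGF signalling, had a level of 3.79 in tooth and 2.46 in skin and was 2.50-fold higher in tooth (difference -1.32 ± 0.20). Its relative *Etv4* was higher in tooth within 2-fold on both probes, by differences of -0.33 ± 0.20 and -0.56 ± 0.20. *Dusp6*, the phosphatase that inactivates ERK, had 3.03 in tooth and 3.29 in skin, differing by 0.27 ± 0.20. The *Dusp6* difference was little larger than its error and was 0.016 with the arrays aligned on their medians. Whether these readouts share a direction therefore cannot be told. Scaled by the spike-in transcripts, which moved the median of all measured named genes to -0.67, the *Dusp6* difference turned to -0.36.

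Among the Sprouty genes, whose products block the path from receptors to ERK, *Spry4* was dim and 2.08-fold higher in tooth, with levels of -2.52 and -3.58 (difference -1.06 ± 0.34). Its error spans the 2-fold limit, and under normexp the difference was -0.24. *Spry1* had 1.83 in tooth and 1.90 in skin, and *Spry2* had -2.57 and -2.39, differences of 0.07 ± 0.20 and 0.18 ± 0.26 that were within their error. *Spred1*, a relative of the Sprouty proteins that acts on Ras, differed by -0.32 ± 0.20 and -0.28 ± 0.20 on its brighter probes, and its remaining probe was above background in tooth alone. *Spred2* differed by 0.37 ± 0.21. *Spry3* and *Spred3* were not detected.

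**Figure D4:**
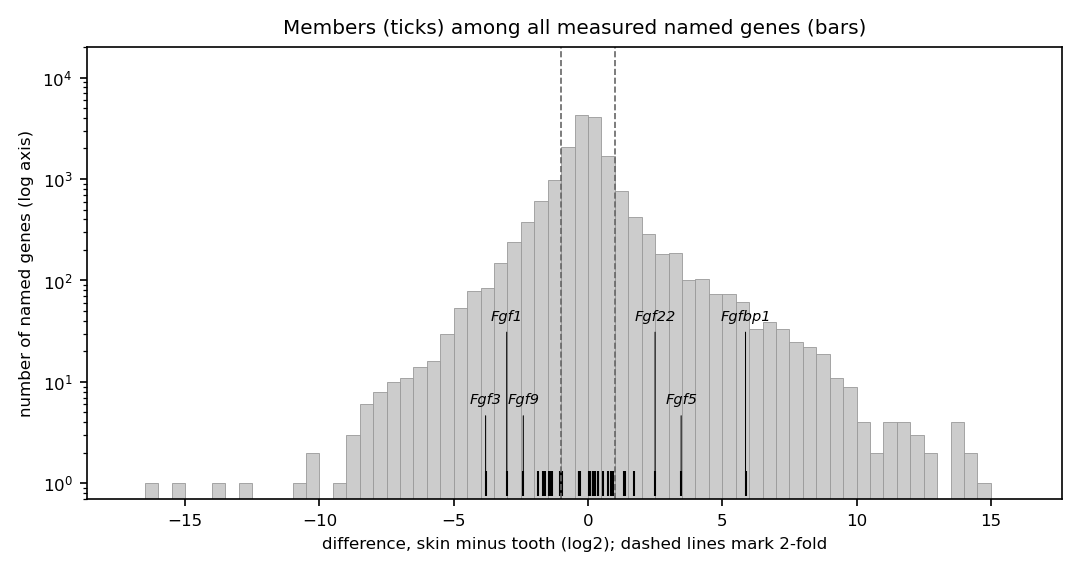
Number of named genes (log axis) by difference between skin and tooth (log2, bins of 0.5) for the 17288 named genes well above background on at least 1 array, with black ticks for the 34 measured members. Dashed lines mark 2-fold, and the members furthest out are named. The members lie within -3.81 to 5.87, well inside the range of all genes.

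Other genes of the pathway were taken from a list of 42, of which 40 were measured. At least a 2-fold difference was seen in 6 toward tooth (15.0%) and 6 toward skin (15.0%), close to the 15.5% and 14.2% of all measured named genes, with a median difference of 0.01. Scaled by the spike-ins, 13 of the 40 were past 2-fold toward tooth. The same scaling raised this count among all 17288 measured named genes from 2675 to 5599. The 18 cascade genes from adaptor to kinase were close between the tissues, with 17 within 2-fold (94.4%, against 70.3% of all named genes). The exception was *Map2k1*, the ERK kinase MEK1, 2.21-fold higher in tooth.

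Among matrix partners and co-receptors, 3 of 11 measured genes were past 2-fold toward tooth (27.3%, against 15.5% of all named genes) and 2 toward skin (18.2%, against 14.2%). *Sulf1*, which removes 6-O-sulfates from heparan sulfate, had a level of 3.96 in tooth and -0.14 in skin, 17.2-fold higher in tooth. *Hs6st1* and *Hs6st2*, which add 6-O-sulfates, were 2.74-fold and 3.12-fold higher in tooth. *Sulf2*, the relative of *Sulf1* on the list, went toward skin within 2-fold, at 1.55 in tooth and 2.50 in skin. *Sulf1* and both *Hs6st* genes were thus higher in tooth, and *Sulf2* in skin. *Flrt1* and *Flrt3*, membrane proteins that bind FGF receptors, were 5.30-fold and 3.17-fold higher in skin, on all 3 probes of each. *Kl* and *Klb*, the Klotho co-receptors of the endocrine FGFs, were not above background on either array.

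Of 11 further targets and feedback genes, 2 were higher in tooth (18.2%, against 15.5% of all named genes) and 4 in skin (36.4%, against 14.2%) by at least 2-fold. *Etv1*, the remaining ETS factor of the *Etv4* and *Etv5* group, had a level of 1.46 in tooth and -1.09 in skin, 5.88-fold higher in tooth, so that all of *Etv1*, *Etv4* and *Etv5* were higher in tooth and *Etv1* and *Etv5* past 2-fold. *Il17rd*, a membrane inhibitor of FGF signalling, was 2.15-fold higher in tooth. *Lrig1*, an inhibitor of receptor tyrosine kinases and a marker of epidermal stem cells, was 23.8-fold higher in skin, at -1.28 in tooth and 3.29 in skin. *Dusp4*, an ERK phosphatase, was 5.04-fold higher in skin. The immediate early genes *Egr1* and *Fos*, which growth factors and many other stimuli induce, were 6.95-fold and 4.61-fold higher in skin.

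**Figure D5:**
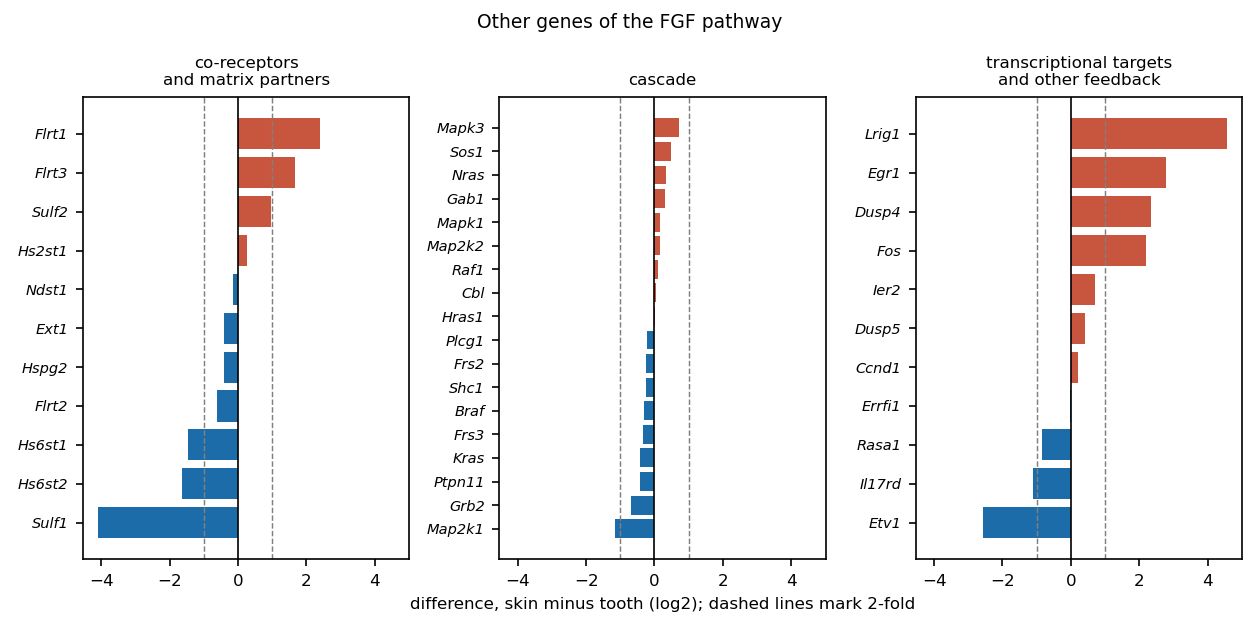
Difference between skin and tooth (log2) of the 40 measured genes of the wider FGF pathway in 3 groups, 1 bar per gene from 0, blue for higher in tooth and red for higher in skin. Dashed lines mark 2-fold. The cascade genes lie within 2-fold except Map2k1, and Sulf1 and Lrig1 have the longest bars.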

How the data were processed

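Total RNA of P0 wild-type tooth and skin was labelled with Cy3 by the low-input method named in the labels, with 1 array per tissue. Per the file headers, the deposited intensity values came from Agilent Feature Extraction (version 10.7.3.1), which had subtracted background, removed trends within the array and put surrogates in place of the dimmest values. Surrogates stood for 22.8% of the non-control spots in tooth and 25.5% in skin. The study's methods named a percentile shift in GeneSpring after removal of dim entities. A deposited table by the authors gave a ratio per spot, the processed intensity divided by 1 factor per array (431 in tooth, 275 in skin), which served as an alternative.

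Outlier spots (137 in tooth and 146 in skin) were left out, log2 intensities were averaged per probe, and the 75th percentile over non-control probes was subtracted. A probe counted as measured when the software called over 50% of its spots well above background. The brightest probe over both arrays stood for a gene, and the other probes are described beside it. Where 1 array was at background, the bright level was set against the lowest level well above background on the other array (-4.52 in tooth, -3.73 in skin) or the dim value itself if higher. These bounds hold for the main processing only, and other settings can fall below them. Names and mm9 positions are those of the array files, and 39 of 39 symbols were also in RefSeq (GRCm38.p6). No genome was used, so the exon or UTR under a probe was not analysed here. Sequences were copied from the array files and aligned without gaps by matches minus mismatches, over at least 20 bases.

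Python 3.11.15, numpy 2.4.6, pandas 2.3.3, matplotlib 3.10.9 and, for normexp and quantile normalization, limma 3.58.1 in R 4.3.3 were used. The calculation was tested on simulated data. The number of arrays limits the precision, and no p-value was calculated. Every member measured on at least 1 array was to be named with its values, and of the wider pathway list those at least 2-fold apart. The members, roles and lists were chosen with earlier results of these data known. Some markers of the neural list are not reported here.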

Additional observations from a re-analysis of the deposited data

How the results depend on the processing

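Of 96 group values (counts and medians under the alternatives), 79 stayed within 1.5 times the reported count or 0.21 (log2) of the reported median. Part of the 96 could hardly move, so that this count overstates how stable the values are. The deposited table is the same signal over 1 factor per array. All receptors were above background on both arrays, so their median stayed at 0.038 under every detection rule. Of the 16 members past 2-fold, 13 kept their direction throughout. The exceptions were Fgf4, whose difference was 0.15 under normexp, Fgf12, at 0.086 under normexp and 0.049 with dim values at their bound, and Fgfr4, at -0.24 as the mean of its probes. Under normexp 5 members were past 2-fold toward tooth and 4 toward skin, beside 1660 and 1738 of all 17288 measured named genes. Aligning the arrays on their medians moved the median difference to -0.12 for the members, -0.058 for secreted ligands, -0.21 for receptors and -0.37 for feedback inhibitors and ETS factors. Spike-in scaling moved the same medians to -0.49, -0.43, -0.58 and -0.75. It raised the other pathway genes past 2-fold toward tooth to 13, and all named genes from 2675 to 5599 of 17288. The median of all measured named genes was -0.29 and -0.67 under these scalings, so they move all genes alike. The mean of the measured probes gave 0.45 for ligands and -0.24 for receptors. Without Fgf6, Fgf14, Fgf23 and Fgfr4, a choice made after seeing the data, the receptor median was -0.82. At 1.5-fold 11 members were higher in tooth and 10 in skin. At 4-fold 3 were higher in tooth and 3 in skin, and of the other pathway genes 2 in tooth and 5 in skin. The shares of all named genes at these thresholds were not calculated. No paired analysis was possible because each tissue had 1 array.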
